A study of Mus musculus with 8 samples.

Results

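The 42 genes described here encode lysosomal hydrolases, their activators and further lysosomal proteins, most of them known from storage diseases. They were listed by gene symbol with earlier results of these data known, by a rule that uses no measured value, and each symbol was found in exactly 1 of the 24942 rows of the table. A split of the 42 by whether they follow the microglial gene Csf1r across libraries does use measured values, so that split is given as a description. RNA was sequenced from retinal ganglion cells, the output neurons of the retina, of mice at postnatal day 8. Of the 8 libraries 4 came from NPC1-deficient mice and 4 from wildtype mice, called littermates in the series' design text, with the strain field of every library reading balb/cnctr-npc1m1n/j and no treatment named for either group. The cells were held on antibody-coated plates (immunopanning) and lysed there without culture. In that field, the entry for libraries 1 and 2 is wildtype in either group and that for libraries 3 and 4 is homozygous, against the titles and descriptions, which were followed. Whether a library stands for its own animal, litter or pool is not in the labels, and the p-values cover the spread among these libraries, which may be technical.

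Lysosomal enzymes are made in the endoplasmic reticulum, carried to the lysosome largely by mannose 6-phosphate receptors, and work there at acid pH, many as proenzymes that are cut to their active form. Loss of a single enzyme leaves its substrate undigested and gives a storage disease, often with damage to the brain and retina. NPC1 sits in the lysosomal membrane and lets cholesterol out, and its loss in Niemann-Pick disease type C makes cholesterol and sphingolipids build up in lysosomes. Microglia, the macrophages of the nervous system, hold large amounts of lysosomal proteases. A few microglia carried along with purified neurons can therefore add RNA of these genes. In such a bulk sample, fewer cells of a type and less RNA per cell cannot be told apart.

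Values are normalized reads, that is, reads per gene divided by a size factor of the library, and the libraries held 33030175 to 44050118 reads. Npc1, the targeted gene, read 707, 754, 831 and 857 in wildtype libraries 1 to 4 and 140, 70.0, 67.6 and 66.1 in NPC1-deficient 1 to 4. Every NPC1-deficient library was far below every wildtype library, at a mean of 85.9 ± 36.0 against 787 ± 69.1 normalized reads (SD, n = 4 each). Its log2 fold change was -3.25 (SE 0.20, adjusted p = 3.23e-05 by limma; exact two-sided permutation p = 0.0286, the smallest that 70 assignments allow). Ganglion cell markers were high and even, with a geometric mean over 14 genes between 12700 and 13600 in every library. Of 14 microglial markers none was at 0 in every library and all 14 had a negative log2 fold change, none of which passed. Their geometric mean was 94.3, 294, 256 and 449 in wildtype libraries 1 to 4 and 111, 89.0, 86.2 and 50 in NPC1-deficient 1 to 4, so wildtype 1 lay with the NPC1-deficient libraries. Geometric means of markers of rods (189 to 496 against 133 to 176), amacrine cells (215 to 460 against 116 to 183) and Müller glia and astrocytes (615 to 789 against 507 to 562) were higher in every wildtype library than in any NPC1-deficient library. All 12 tested rod markers and all 7 of amacrine cells had a negative log2 fold change, but only 5 of 8 of Müller glia and astrocytes. Those of cones (21.9 to 81.5 against 22.7 to 32.2) and bipolar cells (137 to 251 against 79.8 to 175) overlapped in geometric mean.

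Csf1r, the receptor that microglia need to survive, is the reference for the split. It read 311, 910, 846 and 1366 in wildtype libraries 1 to 4 and 289, 254, 188 and 123 in NPC1-deficient libraries 1 to 4. The groups did not overlap, but wildtype 1 was only just above NPC1-deficient 1. The log2 fold change was -1.89 (SE 0.38, adjusted p = 0.079 by limma), which did not pass. With the library set (libraries 1 and 2 or 3 and 4) as a term the same difference passed (limma adjusted p = 0.048), as it did without wildtype 1, at -2.32 (limma adjusted p = 0.00373). Of its exonic length 15.1% overlaps Hmgxb3 on the opposite strand, and since the library kit does not mark strand the reads of such pairs cannot be told apart.

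None of the 42 lysosomal genes passed the test of the genotype difference, limma on log2(value + 1) with Benjamini-Hochberg adjustment at 0.05 over all genes tested. All 42 passed the minimum mean value of 10 normalized reads that was set for testing. Over the 15386 genes tested, 16 passed, which is 0.104% (0.065% lower and 0.039% higher in NPC1-deficient libraries). At an unadjusted p under 0.05 there were 6 lysosomal genes, against 6.76% of all genes tested. The edgeR quasi-likelihood test on reads recovered from the table called 0 of the 42, with 6 at an unadjusted p under 0.05, against 6.93% of all genes. DESeq2 on the same reads called 4, all lower in NPC1-deficient libraries (Ctsc, Ctsh, Ctss and Man2b1), where it called 1.6% of all genes and 6.4% had an unadjusted p under 0.05. The median log2 fold change of the 42 was -0.045, beside 0.005 over all genes tested, with 17 above 0 and 25 below. Of the 42, Mcoln1 alone had groups that did not overlap in either direction, beside 1.86% of all genes higher and 2.41% lower without overlap.

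**Figure D1:**
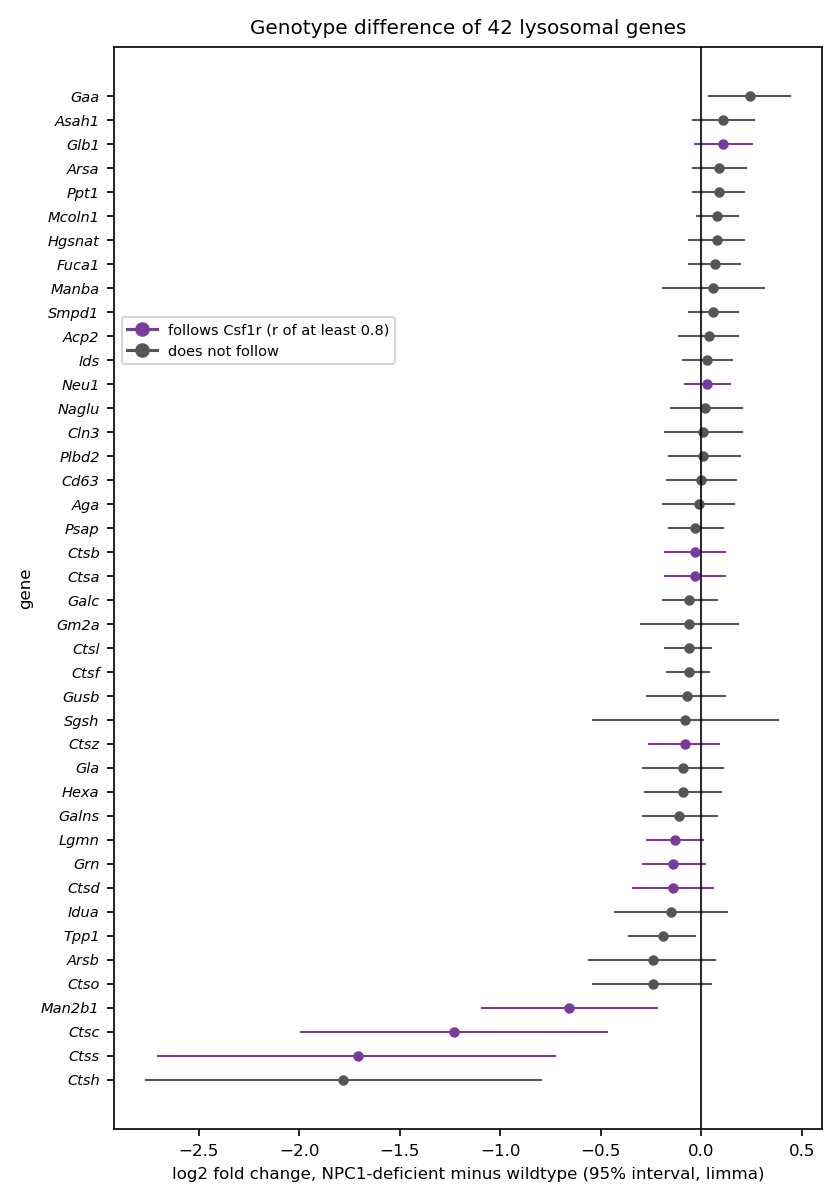
Log2 fold change (NPC1-deficient minus wildtype, 4 libraries each) of the 42 lysosomal genes on the horizontal axis, with the limma 95% interval as a line and the genes on the vertical axis. Ctsh, Ctss, Ctsc and Man2b1 lie between -1.78 and -0.66, and the other 38 lie between -0.24 and 0.24.

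The 42 genes fell apart by size into 4 with large differences and wide spread, and 38 close to 0. For those 38 the log2 fold changes ran from -0.24 to 0.24 with a median of -0.028 and standard errors of 0.05 to 0.21. The 95% interval of 35 of the 38 stayed within 0.5 on the log2 scale in either direction, the exceptions being Ctso, Arsb and Sgsh. Differences larger than that were therefore outside the interval for those 35 genes.

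Levels between genes are compared as mean normalized reads per kilobase of exon. Psap, the precursor of the saposins that present sphingolipids to their hydrolases, was highest at 13183. The aspartic protease gene Ctsd followed at 6997, then Ids, the iduronate sulfatase of Hunter syndrome, at 4806, the cysteine protease gene Ctsb at 3353, and Lgmn, the asparaginyl endopeptidase that matures several cathepsins, at 2109. At the low end were Ctsh at 15.6, Sgsh at 18.1, Ctsc at 19.3 and Idua at 21.3. Ctss stood at 770 and Csf1r at 92.8. Of the exonic length of Ctsd 34.4% is shared with the same-strand model Gm49369, and of that of Ctsb 12.8% overlaps Fdft1 on the opposite strand.

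Likeness to Csf1r was taken from the part of the variation that genotype does not carry. Each gene's log2 values were set against the mean of their own group, and the Pearson r of these 8 deviations with those of Csf1r was computed. A gene was said to follow Csf1r at an r of at least 0.8. By this measure 11 of the 42 followed: Ctsa (0.99), Ctss (0.98), Man2b1 (0.97), Ctsd (0.95), Ctsb (0.93), Ctsc (0.89), Lgmn (0.85), Glb1 (0.83), Ctsz (0.82), Grn (0.82) and Neu1 (0.81). The same r was reached by 2.53% of all genes tested. The median r was 0.58 over the 42 and -0.02 over all genes tested, and 35 of the 42 were above 0. Just inside the limit lay Ctsz, Grn and Neu1, and just outside lay Ctsh (0.79), Arsb (0.78) and Ctsl (0.77). The 8 deviations share library and size factor, and r was used to make the split, so no p is given.

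**Figure D2:**
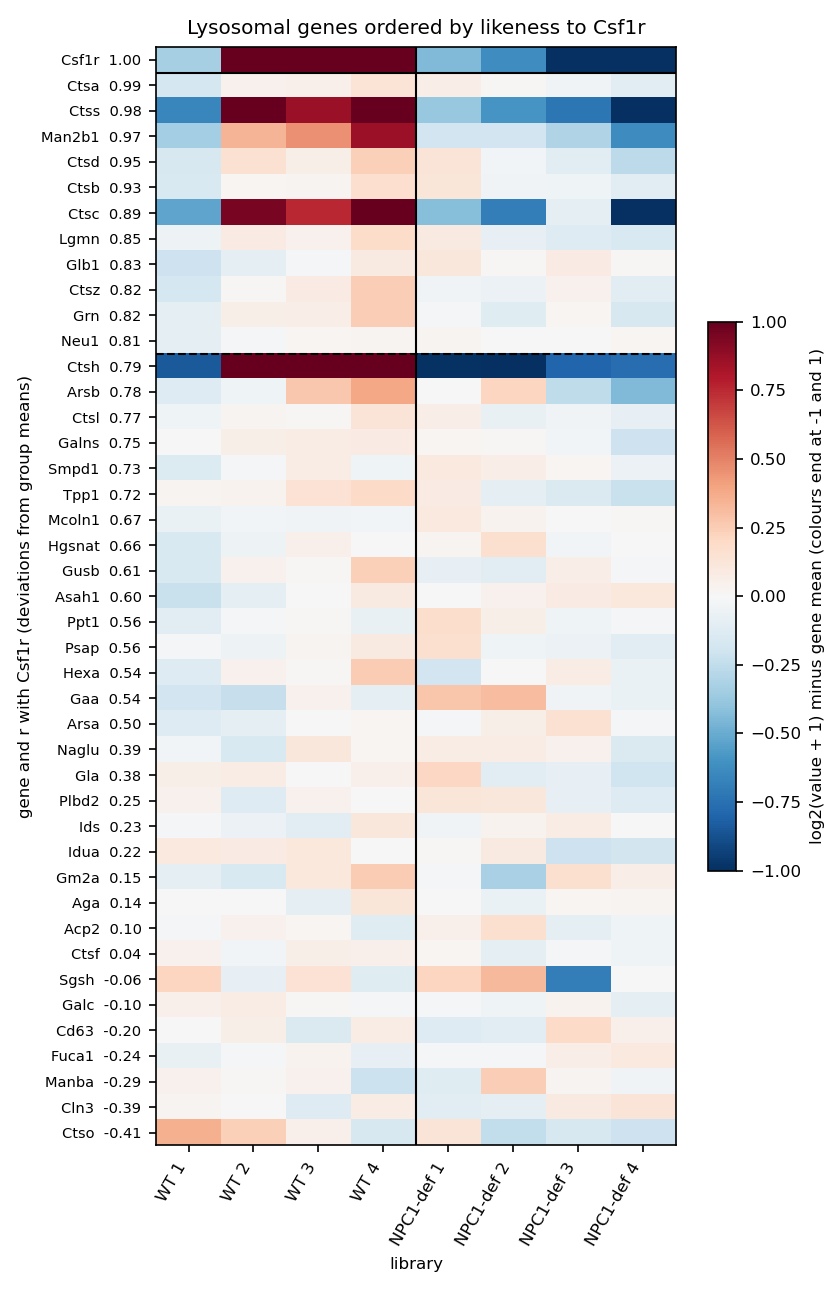
Log2(value + 1) minus the gene's mean over 8 libraries, for Csf1r (top) and the 42 lysosomal genes in order of r, which stands beside each name; columns are wildtype (WT) 1 to 4 and NPC1-deficient 1 to 4, and colours end at -1 and 1. Above the dashed line are the 11 genes with r of at least 0.8, all lowest in wildtype 1 and highest in wildtype 4 among the wildtype libraries.

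All 11 were lowest in wildtype 1 and highest in wildtype 4 of the wildtype libraries, and 9 of 11 were lowest in NPC1-deficient 4 of its group. The split leans on these extremes. Without wildtype 1 and NPC1-deficient 4, the libraries farthest from the median Csf1r deviation, 6 of the 11 kept an r of at least 0.8 over the 6 remaining libraries, where 3.58% of all genes tested reached it. These were Ctsa (0.97), Ctss and Ctsd (0.89 each), Ctsb and Lgmn (0.87 each) and Man2b1 (0.83). The others were between 0.15 (Ctsc) and 0.63 (Neu1). Spearman's rho over the 8 libraries was 0.95 for Ctss, Ctsd and Lgmn, 0.93 for Man2b1 and 0.90 for Ctsa and Ctsb. It was below 0.8 for Glb1 (0.69), Grn (0.67), Ctsc and Neu1 (0.64 each) and Ctsz (0.62). Galns and Tpp1, which did not follow by Pearson r, reached 0.83 each. At a rho of at least 0.8, 8 members followed, 6 of them among the 11.

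The same measure was taken against the mean log2 level of marker lists. With the 14 microglial markers, which include Csf1r, 13 of the 42 reached an r of at least 0.8, against 2.47% of all genes tested. With the 13 markers other than Csf1r, a reference added after the data were seen, it was also 13, against 2.49%. Against ganglion cell, rod, amacrine, Müller glia and astrocyte, or endothelium and pericyte markers, 0 did, and against cone and bipolar markers 1 each. Over all genes tested, 1.36% (ganglion cells) to 3.43% (bipolar cells) reached it with these lists, so counts of 0 or 1 lay near that share. The median r of the 42 was 0.59 with microglia, 0.03 with bipolar cells, -0.21 with ganglion cells and -0.34 with cones. It was -0.35 with rods, -0.42 with amacrine cells, -0.45 with Müller glia and astrocytes and -0.47 with endothelium and pericytes. Over all genes tested it lay between -0.01 and 0.01 for these lists. Ganglion cell markers varied little between libraries (geometric means of 12700 to 13600, against 50 to 449 for microglia), so r with them rests on small deviations.

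How tightly a gene followed Csf1r and by how much are separate quantities. The slope is the change in a gene's log2 deviation per log2 unit of Csf1r, and near 1 it means that the gene scales with Csf1r. It was 1.18 for Ctss, 0.90 for Ctsh, 0.78 for Ctsc and 0.49 for Man2b1. No other member exceeded 0.28 (Arsb). Ctsd had 0.21, Ctsz 0.15, Ctsa and Ctsb 0.14, Grn 0.13, Lgmn 0.12, Glb1 0.11 and Neu1 0.05. So Ctsa tracked Csf1r as tightly as Ctss but moved far less, between 2548 and 3162 normalized reads.

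**Figure D3:**
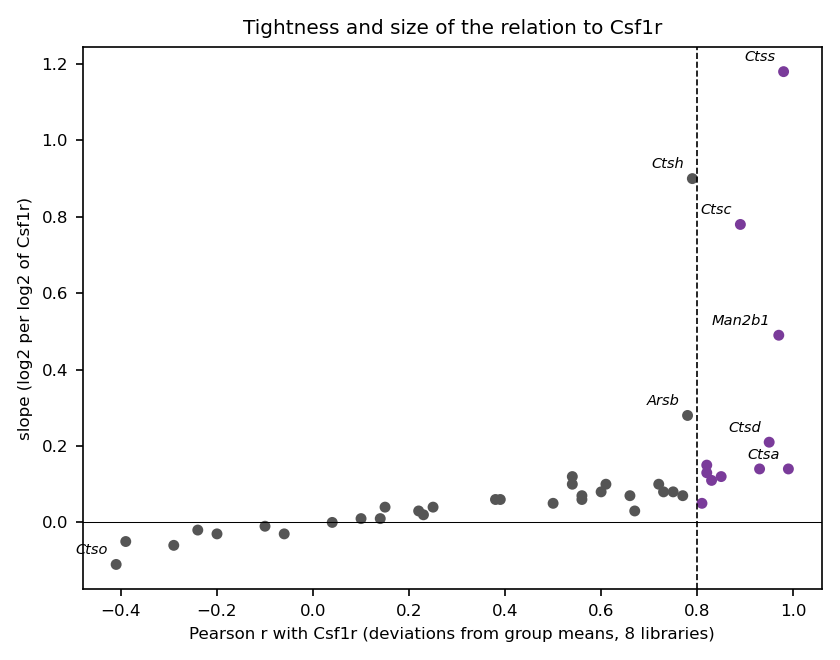
Slope (log2 per log2 of Csf1r) against Pearson r with Csf1r for the 42 lysosomal genes, both from deviations from the group means over 8 libraries; the dashed line marks r = 0.8 and coloured points are the 11 genes at or above it. Ctss, Ctsh, Ctsc and Man2b1 have slopes of 0.49 to 1.18, and the others lie at 0.28 or below.

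Of the 12 proteases 7 followed Csf1r, and all 12 had a negative log2 fold change, none passing (limma adjusted p 0.147 to 0.995). Over all genes tested, 7392 of 15386 were below 0. Within libraries 1 and 2 alone, the proteases Ctsa, Ctsb, Ctsd, Ctsl and Ctsz were above 0. Ctss (chromosome 3, 95526786 to 95556403, plus strand, mm10) encodes cathepsin S, the cysteine protease that antigen-presenting cells use to trim the MHC class II invariant chain. It read 479, 1783, 1370 and 2974 in wildtype libraries 1 to 4 and 581, 501, 456 and 225 in NPC1-deficient 1 to 4. Wildtype 2 to 4 were above every NPC1-deficient library, while wildtype 1 lay among them. The log2 fold change was -1.71 (SE 0.45, adjusted p = 0.176 by limma). The ratio of Ctss to Csf1r reads stayed between 1.54 and 2.43 over the 8 libraries, a range of 1.58 times, while Ctss itself ranged from 225 to 2974. For the other genes with steep slopes the ratio was less even, with a range of 2.77 times for Ctsc and for Ctsh and 3.96 times for Man2b1.

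Ctsh (chromosome 9, 90054152 to 90076089, plus strand, mm10) encodes cathepsin H, an aminopeptidase. It read 27.4, 115, 125 and 188 in wildtype libraries 1 to 4 and 24.5, 24.0, 28.3 and 28.9 in NPC1-deficient 1 to 4. Wildtype 1 stood at the NPC1-deficient level, and the other wildtype libraries were well above it. The log2 fold change was -1.78 (SE 0.45, adjusted p = 0.147 by limma). Among NPC1-deficient libraries Ctsh was not lower where Csf1r was lower, and its ratio to Csf1r ran from 0.0849 to 0.235, highest in NPC1-deficient 4.

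Ctsc (chromosome 7, 88278085 to 88310888, plus strand, mm10) encodes cathepsin C, the dipeptidyl peptidase that activates serine proteases of immune cells. It read 65.0, 183, 159 and 232 in wildtype libraries 1 to 4 and 69.9, 58.0, 88.3 and 39.2 in NPC1-deficient 1 to 4. Here too wildtype 1 lay within the NPC1-deficient range and the other wildtype libraries above it. The log2 fold change was -1.23 (SE 0.35, adjusted p = 0.231 by limma). Without wildtype 1, limma called Ctsc, Ctsh, Ctss and Man2b1, 4 of the 42, where it called 0.936% of all genes. The log2 fold changes were then -1.61, -2.36, -2.22 and -0.88 (limma adjusted p = 0.00936, 0.000768, 0.00641 and 0.0122). With the mean log2 level of the rod markers as a term, limma called the same 4 of the 42, and 0.65% of all genes. The log2 fold changes were then -2.27, -3.31, -3.14 and -1.26. In every wildtype library the rod level was above every NPC1-deficient library (189 to 496 against 133 to 176), so this term largely separates the genotypes. The microglial markers differed in the same direction as the 4 genes in the same libraries, so their level is not independent of genotype either. With their mean log2 level as a term, the log2 fold changes were 0.12 for Ctss (SE 0.11), -0.32 for Ctsh (SE 0.44), 0.05 for Ctsc (SE 0.25) and 0.11 for Man2b1 (SE 0.13), and limma called 0 of the 42 and 0.468% of all genes.

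**Figure D4:**
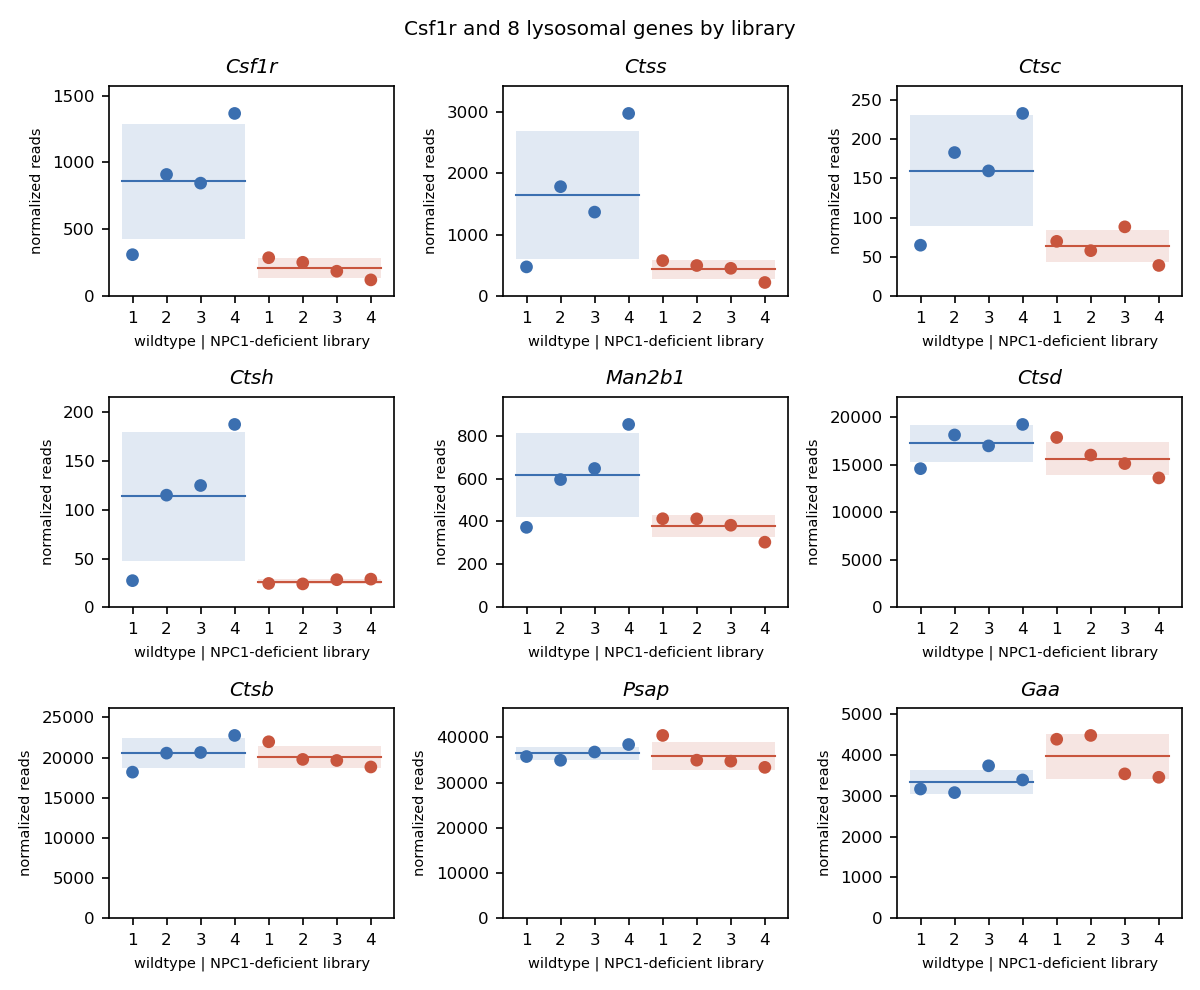
Normalized reads by library for Csf1r and 8 lysosomal genes, with wildtype 1 to 4 in blue on the left and NPC1-deficient 1 to 4 in red on the right; lines are group means and shaded bands 1 SD (n = 4), and each vertical axis starts at 0. For Csf1r, Ctss, Ctsc, Ctsh and Man2b1, wildtype 1 sits near the NPC1-deficient libraries and wildtype 2 to 4 lie above them, while Ctsd, Ctsb and Psap stay within a narrow range.

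The abundant proteases held most of their level in every library. Ctsd, cathepsin D, whose loss gives a severe neuronal lipofuscinosis, read 14593, 18140, 16989 and 19246 in wildtype libraries 1 to 4 and 17871, 16022, 15127 and 13618 in NPC1-deficient libraries 1 to 4. The groups overlapped widely, with the lowest and highest libraries in the order of Csf1r, and the log2 fold change was -0.14 (SE 0.09, adjusted p = 0.924 by limma). Ctsb, cathepsin B, read 18182, 20546, 20628 and 22747 against 21962, 19766, 19634 and 18824, a log2 fold change of -0.03 (SE 0.07, limma adjusted p = 0.995). Ctsa, the protective protein of β-galactosidase and neuraminidase, had the same log2 fold change and SE. Lgmn read 5123 ± 343 in wildtype and 4677 ± 360 in NPC1-deficient libraries (SD, n = 4), a log2 fold change of -0.13 (SE 0.07). Tpp1, the tripeptidyl peptidase of late infantile neuronal ceroid lipofuscinosis, read 1307 ± 74.9 and 1144 ± 105 (SD, n = 4), with a log2 fold change of -0.19 (SE 0.07, limma adjusted p = 0.536) and an r of 0.72.

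Ctsl and Ctso, cysteine proteases of the same papain-like family as Ctss, did not follow Csf1r, though Ctsl lay just outside the limit (r 0.77). With the 14 microglial markers in place of Csf1r, Ctsl reached an r of at least 0.8. Ctsl stood at 1358 normalized reads per kilobase, the highest of the family among those that did not follow Csf1r. It read 9002 ± 442 in wildtype and 8626 ± 430 in NPC1-deficient libraries (SD, n = 4). Of its exonic length 26.8% overlaps the opposite-strand model Gm47123. Ctso had the lowest r of all members, -0.41. It read 206, 191, 167 and 144 in wildtype libraries 1 to 4 and 176, 136, 144 and 139 in NPC1-deficient 1 to 4, so it was highest in the wildtype library where Csf1r was lowest. Its log2 fold change was -0.24 (SE 0.14, adjusted p = 0.870 by limma).

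Promoter sequence is shown for the 3 followers with the steepest slopes (Ctss, Ctsc and Man2b1) and for examples of members that carry the E-box. RefSeq windows of 300 bases (250 before to 50 after a transcript start, GRCm38.p6, the same build as mm10) were found for 35 of the 42 genes, 39 windows in all. They were searched on both strands for CACGTG, the E-box bound by TFEB and related factors of lysosomal genes, for the longer form TCACGTGA that contains it, and for GAGGAAGT, a core of sites of PU.1, a factor of macrophages and microglia. The 250 bases before the start are printed for Ctss (chr3:95526536-95526785, plus strand), Ctsc (chr7:88277835-88278084, plus strand) and Man2b1 (chr8:85083019-85083268, plus strand), with capitals on a GAGGAAGT match, which reads ACTTCCTC on the printed strand. In Ctss the match spans the start, so it is not whole in these 250 bases and no capitals appear. Man2b1 holds none of the motifs in its printed stretch.
Ctss: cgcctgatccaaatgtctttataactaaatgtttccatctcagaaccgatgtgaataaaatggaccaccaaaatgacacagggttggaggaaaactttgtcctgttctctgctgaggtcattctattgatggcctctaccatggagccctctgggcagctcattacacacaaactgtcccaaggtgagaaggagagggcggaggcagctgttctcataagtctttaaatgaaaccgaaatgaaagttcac
Ctsc: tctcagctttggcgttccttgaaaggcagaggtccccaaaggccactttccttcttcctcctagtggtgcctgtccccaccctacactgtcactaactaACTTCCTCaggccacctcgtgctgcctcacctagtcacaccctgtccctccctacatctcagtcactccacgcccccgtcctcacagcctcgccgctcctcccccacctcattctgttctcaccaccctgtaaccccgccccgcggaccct
Man2b1: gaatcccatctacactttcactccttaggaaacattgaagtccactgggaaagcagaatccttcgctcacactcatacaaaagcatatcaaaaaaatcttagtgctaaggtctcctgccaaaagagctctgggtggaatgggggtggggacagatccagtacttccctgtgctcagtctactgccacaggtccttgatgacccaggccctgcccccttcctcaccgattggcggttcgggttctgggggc

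In 30-base stretches, with capitals on the longest motif matched, the start-spanning site of Ctss (chr3:95526773-95526802, plus strand) is set beside E-box sites of members that followed with a small slope (Ctsa, chr2:164833749-164833778, plus strand; Ctsd, chr7:142387908-142387937, minus strand; Glb1, chr9:114401018-114401047, plus strand) and of members that did not follow (Gla, chrX:134601182-134601211, minus strand; Mcoln1, chr8:3500462-3500491, plus strand; Gaa, chr11:119267811-119267840, plus strand).
Ctss: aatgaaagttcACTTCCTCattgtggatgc
Ctsa: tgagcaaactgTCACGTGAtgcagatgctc
Ctsd: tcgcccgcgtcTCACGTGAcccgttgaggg
Glb1: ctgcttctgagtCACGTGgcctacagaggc
Gla: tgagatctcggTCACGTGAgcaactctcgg
Mcoln1: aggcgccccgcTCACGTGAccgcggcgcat
Gaa: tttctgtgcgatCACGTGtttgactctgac

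CACGTG was present in 13 of the 39 windows (33.3%), against 7.15% of the 32851 windows of all genes. TCACGTGA was present in 5 (12.8%, against 0.974%), namely in windows of Cln3, Ctsa, Ctsd, Gla and Mcoln1. Members that followed Csf1r held CACGTG in 4 of 12 windows and the others in 9 of 27, which is 33.3% each. GAGGAAGT was present in 4 windows (10.3%, against 3.2%), those of Ctsc and Ctss, which followed, and of Gla and Gusb, which did not. Gla thus holds both kinds of motif. Matches describe these letters in these windows and no more, and windows of lysosomal genes may differ from others in base composition, which was not compared.

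Among the enzymes that take sugars off glycoproteins or glycogen, Man2b1 and Neu1 followed Csf1r. Man2b1 (chromosome 8, 85083270 to 85098282, plus strand, mm10) encodes the α-mannosidase of α-mannosidosis. It read 373, 595, 647 and 852 in wildtype libraries 1 to 4 and 413, 412, 383 and 304 in NPC1-deficient 1 to 4. Wildtype 1 lay below 3 of the 4 NPC1-deficient libraries and the other wildtype libraries above them all. The log2 fold change was -0.66 (SE 0.20, adjusted p = 0.300 by limma). Its ratio to Csf1r reads ran from 0.624 to 1.2 in wildtype and from 1.43 to 2.47 in NPC1-deficient libraries. Neu1, the lysosomal sialidase, was nearly flat, at 1801 ± 73.5 in wildtype and 1837 ± 15.2 in NPC1-deficient libraries (SD, n = 4). Its r of 0.81 rests on small deviations, with a slope of 0.05.

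Gaa, the α-glucosidase that digests glycogen and is lost in Pompe disease, had the highest log2 fold change of the 42, 0.24 (SE 0.09, limma adjusted p = 0.554). It read 3167, 3079, 3736 and 3388 in wildtype libraries 1 to 4 and 4386, 4479, 3538 and 3454 in NPC1-deficient 1 to 4. NPC1-deficient 1 and 2 were the highest of all libraries, and NPC1-deficient 3 and 4 lay within the wildtype range. Manba, the β-mannosidase gene, and Fuca1, the α-fucosidase gene, had an r with Csf1r of -0.29 and -0.24 and log2 fold changes of 0.06 (SE 0.11) and 0.07 (SE 0.06). Aga, the aspartylglucosaminidase gene, read 347 ± 21.2 and 343 ± 10.1 (SD, n = 4).

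The 9 genes of sphingolipid breakdown, which encode enzymes and activators, had log2 fold changes between -0.09 (Gla and Hexa) and 0.11 (Asah1 and Glb1). Of these, 4 were above 0 and 5 below, none passing (limma adjusted p 0.892 to 0.995). Psap read 35765, 34936, 36764 and 38418 in wildtype libraries 1 to 4 and 40430, 34960, 34742 and 33374 in NPC1-deficient 1 to 4, a log2 fold change of -0.03 (SE 0.06). Smpd1, the acid sphingomyelinase gene of Niemann-Pick disease types A and B, read 6163 ± 367 in wildtype and 6435 ± 302 in NPC1-deficient libraries (SD, n = 4), a log2 fold change of 0.06 with a 95% interval of -0.06 to 0.18. Hexa, a hexosaminidase gene lost in Tay-Sachs disease, read 1082 ± 119 and 1014 ± 77.3 (SD, n = 4), with an r of 0.54 and a slope of 0.10. Asah1, the acid ceramidase gene, read 1704 ± 155 and 1838 ± 58.2 (SD, n = 4). Glb1, the β-galactosidase gene of GM1 gangliosidosis, followed Csf1r (r 0.83) yet had a positive log2 fold change, 0.11 (SE 0.07, limma adjusted p = 0.892). It read 1918, 2085, 2202 and 2355 in wildtype libraries 1 to 4 and 2398, 2232, 2345 and 2239 in NPC1-deficient 1 to 4, so its lowest libraries were wildtype 1 and 2. Galc, the galactocerebrosidase gene of Krabbe disease, did not follow (r -0.10) and read 787 ± 23.7 and 757 ± 28.9 (SD, n = 4).

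None of the 8 genes of glycosaminoglycan breakdown, lost in the mucopolysaccharidoses, followed Csf1r or passed the test, and their log2 fold changes ran from -0.24 to 0.08. Ids was the most abundant and was even, at 24262 ± 1649 in wildtype and 24769 ± 824 in NPC1-deficient libraries (SD, n = 4), a log2 fold change of 0.03 (SE 0.05). Arsb, the arylsulfatase of Maroteaux-Lamy syndrome, came closest to following (r 0.78). It read 691, 735, 914 and 987 in wildtype libraries 1 to 4 and 752, 880, 632 and 558 in NPC1-deficient libraries 1 to 4. The order of the groups was opposite in libraries 1 and 2 and in libraries 3 and 4, and over all 8 the log2 fold change was -0.24 (SE 0.15, adjusted p = 0.892 by limma). Of the exonic length of Arsb 39.9% overlaps the opposite-strand models Gm47210 and Gm26527. Sgsh, the sulfamidase gene of Sanfilippo syndrome, was low and uneven, with 48.0 in NPC1-deficient 3 against 78.5 to 98.1 in the other NPC1-deficient libraries.

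Of the remaining members, Ppt1, the thioesterase gene of infantile neuronal ceroid lipofuscinosis, the phospholipase B-like gene Plbd2 and the acid phosphatase gene Acp2 had log2 fold changes of 0.01 to 0.09. Mcoln1, the TRPML1 calcium channel gene of mucolipidosis type IV, read 3222, 3317, 3286 and 3304 in wildtype libraries 1 to 4 and 3619, 3462, 3392 and 3411 in NPC1-deficient 1 to 4. Every NPC1-deficient library was above every wildtype library, by a log2 fold change of 0.08 (SE 0.05, limma adjusted p = 0.871), which did not pass. Grn, the progranulin gene, followed Csf1r (r 0.82) and read 3484 ± 338 and 3164 ± 185 (SD, n = 4), a log2 fold change of -0.14 (SE 0.07, limma adjusted p = 0.824). Cln3, the membrane protein gene of Batten disease, and Cd63, a tetraspanin gene of late endosomes and lysosomes, had an r of -0.39 and -0.20 and log2 fold changes of 0.01 (SE 0.09) and 0.00 (SE 0.08).

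The genotype difference was read separately in libraries 1 and 2 and in libraries 3 and 4 (2 against 2 each), the division made by the strain field. Within libraries 1 and 2 the median log2 fold change of the 42 was 0.031 with 23 above 0, and within libraries 3 and 4 it was -0.123 with 10 above 0. Over all genes tested it was 0.001 in each. Within libraries 3 and 4, where Csf1r had a log2 fold change of -2.82 (against -0.97 within 1 and 2), limma called 7 members lower, Ctsc, Ctsd, Ctsh, Ctss, Tpp1, Arsb and Man2b1, and none higher, with 1.55% of all genes called lower and 2.18% in either direction. Within libraries 1 and 2 limma called Gaa alone, higher by 0.51 (limma adjusted p = 0.00598), where it called 0.371% of all genes. Gaa within libraries 3 and 4 was at -0.03 (limma adjusted p = 0.909). The difference between the library sets was tested as an interaction in limma, and none of the 42 passed, beside 0.078% of all genes. The smallest adjusted p was 0.0574, for Gaa (difference -0.53, SE 0.09) and for Arsb (difference -0.87, SE 0.14).

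**Figure D5:**
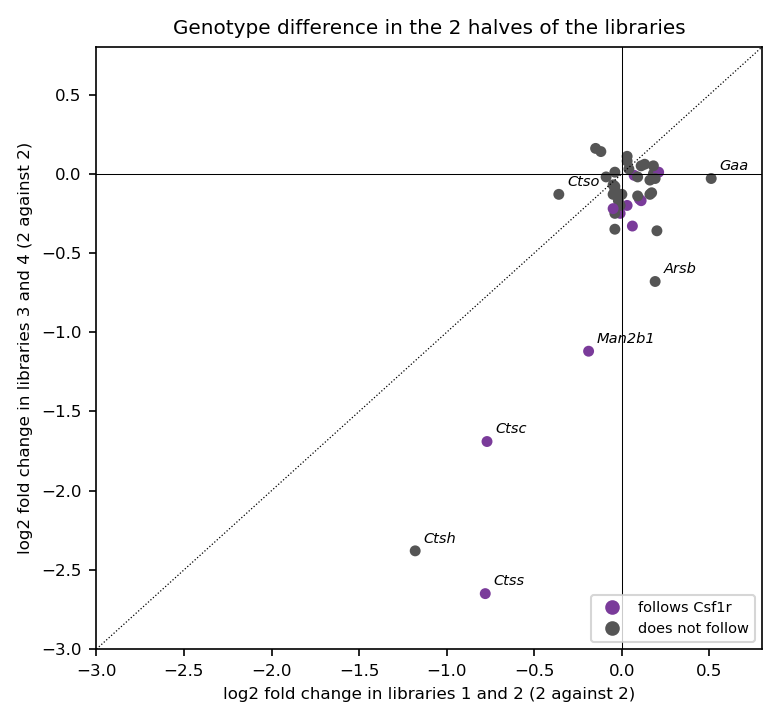
Log2 fold change of the 42 lysosomal genes in libraries 3 and 4 (vertical) against libraries 1 and 2 (horizontal), each from 2 NPC1-deficient and 2 wildtype libraries; the dotted line marks equal values and colour marks genes that follow Csf1r. Most of the 42 genes lie below the line, farthest Ctss, Ctsh, Ctsc and Man2b1, with larger negative values in libraries 3 and 4. Gaa lies at 0.51 in libraries 1 and 2 and -0.03 in libraries 3 and 4.

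With the log2 level of Csf1r as a term in the limma fit, no member passed, where 0.39% of all genes did. Ctss then had a log2 fold change of 0.52, Man2b1 of 0.28, Ctsc of 0.25 and Ctsh of -0.07. Of the 42, 33 were above 0 (78.6%, against 50.9% of all genes tested), with a median of 0.098, beside 0.004 over all genes. The largest after Ctss were Gaa at 0.47 and Glb1 at 0.31 (limma adjusted p = 0.388 and 0.364). Because Csf1r is lower in every NPC1-deficient library, the term largely separates the genotypes, and by its construction it raises the fold change of any gene with a positive slope on Csf1r.

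Another 65 lysosomal genes were taken as a comparison, of which 60 reached the minimum mean value. None passed, and 8 had an unadjusted p under 0.05 by limma, against 6.76% of all genes tested. Of the 60, 34 were above 0 and the median log2 fold change was 0.019. The list, made of further hydrolases, delivery factors and membrane proteins, held 6 genes that followed Csf1r (10%, against 26.2% of the 42 members), among them Ctse, Rnaset2a, Nagpa, Laptm5 and Cd68. Laptm5, a lysosomal membrane protein gene of blood cells and microglia, had a log2 fold change of -1.27 (SE 0.38, limma adjusted p = 0.276) and a slope of 0.96. Dnase2a, the lysosomal DNase gene, did not follow Csf1r (r 0.01) and had a log2 fold change of -0.61 (SE 0.19, limma adjusted p = 0.326). It was low, at 52.4, 45.4, 42.9 and 48.4 in wildtype libraries 1 to 4 and 40.8, 26, 28.3 and 28.9 in NPC1-deficient 1 to 4. Dnase2a was 1 of 3 among the 60 whose groups did not overlap, each lower in NPC1-deficient libraries. Over all genes tested 2.41% were lower without overlap. Laptm4b had -0.19 (SE 0.06, limma adjusted p = 0.395).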

How the data were processed

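The deposited table gives a normalized signal per gene and library, a read count divided by a size factor, as the deposited values themselves show. CASAVA 1.8.2, HTSeq 0.5.4p3, DESeq2 1.0.19 and mm10 are named without roles in the submitters' processing notes, and which aligner and gene annotation were used is not given in the sources used here. Within a tolerance of 1e-06 of a read, all 199536 values (100%) were whole multiples of their library's smallest step, so reads were recovered for the count tests. A value of 0 allows up to 3 reads, 2.69 to 3.42 normalized, for counting error only.

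Genes with a mean of at least 10 were compared with limma 3.58.1 (R 4.3.3) on log2(value + 1), with a mean-variance trend, Benjamini-Hochberg adjustment at 0.05 and no covariate. The scale understates folds of low genes. edgeR 4.0.16 and DESeq2 1.42.0 on recovered reads, other pseudocounts (0.5, 5), filters (none, 50), scalings, model terms and library subsets were alternatives. The limma fit and the likeness measure were tested on simulated data. In the likeness simulation, genes built to follow had a slope of 1 on the reference and independent noise. Followers with small slopes were therefore not covered by it. Members and lists were chosen with earlier results of these data known. Members described in detail were the 8 with the smallest p, the 6 with the largest change, the 8 with the highest and 6 with the lowest r and the 5 with the highest level, the papain-like cathepsins with the highest r (Ctss) and with the highest level among those that did not follow (Ctsl), with the 4 comparison genes of smallest p, of which 1 is not reported here; Aga, Asah1, Acp2, Ctsz, Hexa, Idua, Mcoln1, Neu1, Plbd2, Ppt1, Sgsh and Smpd1, and the comparison genes Cd68, Ctse, Nagpa and Rnaset2a, were added to these after their values were seen. Exonic lengths and positions came from GENCODE M21, which holds 98.1% of the gene identifiers. Same-numbered libraries did not deviate together (correlations -0.07 to -0.02), so numbers were not taken as pairs.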

Additional observations from a re-analysis of the deposited data

Results flagged for a closer look

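Among 27 genes checked in each group (54 groups of 4 libraries), 3 libraries stood apart from their group by Dixon's test at the 95% level, where chance gives about 1 in 20 groups. Npc1 was 140 normalized reads in NPC1-deficient 1, against 70 in the next highest NPC1-deficient library. Manba was 161 in wildtype 4, against 190 in the next lowest wildtype library. Laptm5 was 142 in NPC1-deficient 4, against 250 in the next lowest NPC1-deficient library. Arsb had a genotype difference of opposite sign in every library of the sets: higher in NPC1-deficient libraries 1 and 2, lower in 3 and 4. The change in its log2 fold change between the sets was -0.87 (limma interaction adjusted p = 0.0574), which did not pass. Cln3 showed the reverse order, lower in NPC1-deficient libraries 1 and 2 and higher in 3 and 4, with a change of 0.25 between the sets (limma interaction adjusted p = 0.510).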

How the results depend on the processing

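Of all genes tested, 16 passed in the limma fit, against 10 with a minimum mean of 50, 34 with a replicate block, 99 with the library set as a term, 57 within libraries 1 and 2, 335 within libraries 3 and 4, 60 with the Csf1r term, 72 with the microglia term, 100 with the rod term and 246 by DESeq2. Leaving out 1 library at a time gave 2 to 144. Lysosomal members called lower numbered 7 within libraries 3 and 4, 4 with the rod term, 4 by DESeq2 and 0 to 4 without 1 library each, and 1 was called higher within libraries 1 and 2. Other lysosomal genes called lower numbered 2 within libraries 3 and 4, 3 with the rod term and 0 to 3 without 1 library each. The median log2 fold change of the members was 0.031 within libraries 1 and 2, -0.123 within libraries 3 and 4, 0.098 with the Csf1r term and 0.075 with the microglia term. That of the other lysosomal genes was -0.053 within libraries 3 and 4, 0.097 with the Csf1r term and 0.076 with the microglia term. Csf1r passed with the library set as a term (-1.89), within libraries 3 and 4 (-2.82), with the rod term (-3.01) and by DESeq2 (-2.01), and ranged from -2.32 (without wildtype 1, where it passed) to -1.61 without 1 library each. Members that followed Csf1r numbered 17 at an r of at least 0.7, 5 at 0.9 and 7 to 14 without 1 library each, and Ctsd, Ctss and Man2b1 followed in all 15 other settings tried.

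Over all 42 members, the log2 fold change had another sign than in the limma fit for 3 with quantile scaling, 10 within libraries 1 and 2, 9 within libraries 3 and 4, 22 with the Csf1r term, 21 with the microglia term, 9 with the rod term and 0 to 5 without 1 library each; the cause was not tested. Values follow for the genes named by rule. With quantile scaling, Cd63 was -0.0041 and Ids -0.0027. Within libraries 1 and 2, Arsb was 0.19, Ctsa 0.10, Ctsd 0.06, Ctsb 0.11, Cd63 -0.15, Cln3 -0.12, Psap 0.09 and Ctsl 0.0034. Within libraries 3 and 4, Gaa was -0.03, and Ppt1, Smpd1, Neu1, Naglu, Hgsnat, Aga, Acp2 and Plbd2, outside that rule, also changed sign. With the Csf1r term, Ctss was 0.52, Ctsc 0.25, Man2b1 0.28, Tpp1 0.0022, Lgmn 0.09, Grn 0.10, Arsb 0.29, Ctsa 0.24, Ctsd 0.27, Ctsb 0.24, Cd63 -0.06, Manba -0.05, Cln3 -0.09, Psap 0.11, Ctsl 0.08 and Laptm5 0.55. With the microglia term, Ctss was 0.12, Ctsc 0.05, Man2b1 0.11, Lgmn 0.04, Grn 0.07, Arsb 0.14, Ctsa 0.19, Ctsd 0.18, Ctsb 0.19, Cd63 -0.01, Manba -0.05, Cln3 -0.05, Psap 0.08, Ctsl 0.05 and Laptm5 0.24. With the rod term, Ctso was 0.04, Glb1 -0.01, Cd63 -0.08, Cln3 -0.03 and Ids -0.04. Without 1 library each, Cd63 ran from -0.06 to 0.05, Cln3 from -0.03 to 0.05, Ctsa from -0.09 to 0.01, Ctsb from -0.09 to 0.02, Manba from -0.02 to 0.11 and Psap from -0.09 to 0.0068. Library numbers were shared between the groups, but same-numbered libraries did not deviate together (correlations -0.02, -0.03, -0.02 and -0.07) and none of the 4 wildtype libraries was best matched by its own number. With the replicate block 34 genes passed, 0 of them among the 42. With 4 libraries a group, and 2 in each library set, even large differences with wide spread did not pass in the limma fit over all libraries. Examples were Ctsh at -1.78 (SE 0.45) and Ctsc at -1.23 (SE 0.35). Sgsh had an SE of 0.21. The smallest difference detectable for these genes was not computed.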
